A study of Rattus norvegicus with 9 samples.

Results

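Interferon response genes were followed across rat tongue tissue as the transcription factors Irf1, Irf7, Irf9 and Stat2, the antiviral effectors Mx1, Mx2 and Ifit3, and the ubiquitin-like modifier Isg15. Members were taken as every probe set whose only gene symbol in the platform annotation was 1 of these names, which gave 8 genes on 11 probe sets among 14217 named genes and 31042 probe sets tested. Irf9, Stat2 and Mx2 had more than 1 probe set, and the brightest of them on average stands for the gene unless another is named. Tongues of male Sprague-Dawley rats were measured on 9 arrays, 3 in each group. Normal rats drank distilled water, 4NQO rats received 0.002% 4-nitroquinoline oxide in their water (4NQO is a carcinogen that gives tongue dysplasia and squamous cell carcinoma), and IL-1Ra rats received the same 4NQO with IL-1Ra, the natural antagonist of the IL-1 receptor. The labels place the killing of 4NQO rats with visible lesions between week 14 and week 22, whereas the study's methods describe weekly submucosal IL-1Ra injections into the mid-tongue, saline injections in the 4NQO group, and an end at week 22. The sources used here give neither the age of the rats nor the lesion stage of each tongue, and name no injection in normal rats.

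Interferons are cytokines that cells release on sensing foreign nucleic acid. Type I interferon binds Ifnar1 and Ifnar2, the kinases Jak1 and Tyk2 become active, and Stat2 and Irf9 enter the ISGF3 complex, which binds the interferon-stimulated response element (ISRE) of its target genes. Interferon-gamma acts through Jak1 and Jak2 on genes with a gamma-activated site (GAS), and Irf1 is a classical target. Irf7 amplifies the response by driving interferon genes. Mx1 and Mx2 are dynamin-like GTPases that block viral replication. Ifit3 belongs to a family with members that bind foreign RNA, and Isg15 is attached to other proteins after interferon. In a mucosa such as the tongue these genes can be expressed by epithelium, vessels and immune cells.

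Promoter sequence of the 8 genes was examined as a description. RefSeq (GRCr8) promoters of 300 bases, 250 before and 50 after the start, were found for 6 of the 8 genes, all but Isg15 and Mx2. They were searched for the ISRE core, spelled GAAA, any 2 bases, GAAA, on both strands, and for the GAS, spelled TTC, any 3 bases, GAA, which reads the same on both strands. These 2 motifs did not overlap in any of the 6. The stretches with a match are given on the gene's strand, 5′ to 3′, with the match in capitals. For Irf1 and Ifit3 they lie before the annotated gene. For Irf7 and Irf9 the start in the promoter table lies 520 and 414 bases inside the annotated gene. Their whole windows therefore lie inside the gene, and only 30 bases around each match are shown.
Irf7, ISRE core on the opposite strand, chr1:205800073-205800102, minus strand: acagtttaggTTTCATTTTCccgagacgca
Ifit3, ISRE core on the opposite strand, chr1:241527166-241527295, plus strand: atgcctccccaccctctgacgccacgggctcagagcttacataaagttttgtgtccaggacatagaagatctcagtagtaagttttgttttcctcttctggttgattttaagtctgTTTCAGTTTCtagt
Irf1, GAS, chr10:38417775-38417904, plus strand: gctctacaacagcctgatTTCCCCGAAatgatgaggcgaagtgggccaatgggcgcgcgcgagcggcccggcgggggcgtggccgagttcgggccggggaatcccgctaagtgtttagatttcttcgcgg
Irf9, GAS, chr15:33065727-33065756, plus strand: accacgtgatTTCTAGGAActgcacctccc
The ISRE core was thus found in 2 of 6 promoters and the GAS in 2 of 6, whereas 3.92% and 8.87% of all 33469 promoters in the table held them. These counts include the matches of Irf7 and Irf9, which lie inside the annotated gene and not before it. The windows of Mx1 and Stat2 held neither spelling. Their starts in the promoter table also lie inside the annotated gene, so these windows reach less far before it. A match is a description of these letters and was not tested for binding.

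None of the 8 genes differed between groups beyond the spread of the arrays. Limma called 0 of 8 members in 4NQO against normal, where it called 14.9% of all probe sets, 0 of 8 in IL-1Ra against 4NQO (2.33% of all probe sets) and 0 of 8 in IL-1Ra against normal (1.87%). By the F test for any difference among the 3 groups it called 0 of 8 (12.0% of all probe sets). At an unadjusted limma p under 0.05 the count was also 0 of 8 in each comparison, against 32.9%, 19.0% and 22.7% of all probe sets. The lowest adjusted p was 0.398 in 4NQO against normal, 0.384 in IL-1Ra against 4NQO and 0.272 in IL-1Ra against normal. In no comparison were the arrays of both groups apart for any of the 8, against 38.2%, 20.6% and 35.3% of all probe sets in the same order. A call here is a Benjamini-Hochberg adjusted p at or under 0.05 over all probe sets, and all levels and differences are on the log2 intensity scale. What the 8 genes did share was their highest IL-1Ra array, array 3 for 8 of 8 genes (36.4% of all probe sets). In the normal and 4NQO groups the highest array differed between genes.

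Stat2 is a subunit of the ISGF3 complex that carries its activating domain (chr7:1287025-1302858, GRCr8). Its levels were 6.53, 6.85 and 6.43 on the normal arrays, 6.92, 6.53 and 6.49 on the 4NQO arrays and 6.83, 6.76 and 7.31 on the IL-1Ra arrays. Normal and 4NQO arrays covered nearly the same range, and IL-1Ra array 3 stood above all others. The means were 6.61 ± 0.22, 6.65 ± 0.24 and 6.97 ± 0.30 (SD, n = 3), so the order was normal, 4NQO, IL-1Ra, with no neighbours differing beyond their spread. The difference between IL-1Ra and normal was 0.36 (95% interval -0.05 to 0.77; limma adjusted p = 0.272), and that between IL-1Ra and 4NQO was 0.32 (-0.09 to 0.73; limma adjusted p = 0.384). These were the lowest adjusted p of the 8 genes in these comparisons. The other Stat2 probe set ran from 6.39 to 7.03, again highest on IL-1Ra array 3.

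Irf9 is the DNA-binding subunit of ISGF3 (chr15:33065422-33071881). It measured 5.77, 6.58 and 6.33 on normal arrays, 6.51, 5.83 and 5.86 on 4NQO arrays and 6.0, 6.68 and 6.99 on IL-1Ra arrays. In each group 1 or 2 arrays were high and the rest low, and the 3 groups overlapped. The order was 4NQO (6.07 ± 0.38), normal (6.23 ± 0.41) and IL-1Ra (6.56 ± 0.50; SD, n = 3). The difference between IL-1Ra and 4NQO was 0.49, with an interval of -0.16 to 1.13 (limma adjusted p = 0.399). The second Irf9 probe set put 4NQO above normal by 0.35, whereas the brighter one put it lower, at -0.16.

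Irf1 is the interferon-gamma target whose promoter held the GAS printed above (chr10:38417935-38424946). Its levels were 6.27, 6.67 and 5.94 on normal arrays, 7.23, 6.26 and 6.47 on 4NQO arrays and 6.85, 6.45 and 7.20 on IL-1Ra arrays. It was the only one of the 8 whose highest value came from another array than IL-1Ra array 3, namely 4NQO array 1. The order was normal (6.29 ± 0.36), 4NQO (6.65 ± 0.51) and IL-1Ra (6.83 ± 0.37; SD, n = 3), the widest range of group means of the 8, yet neighbours in this order did not differ beyond their spread. IL-1Ra minus normal was 0.54 (-0.09 to 1.16; limma adjusted p = 0.284), which corresponds to 1.45-fold, and 4NQO minus normal was 0.36 (-0.27 to 0.99; limma adjusted p = 0.398).

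Irf7, the amplifier of type I interferon (chr1:205796956-205800543), held 1 of the 2 ISRE cores found. It measured 6.90, 8.16 and 7.54 on normal arrays, 7.76, 7.13 and 6.74 on 4NQO arrays and 7.03, 7.0 and 8.26 on IL-1Ra arrays. Each group thus had 1 array well above its lowest, and the normal array 2 was nearly as high as IL-1Ra array 3. The order was 4NQO (7.21 ± 0.51), IL-1Ra (7.43 ± 0.71) and normal (7.53 ± 0.63; SD, n = 3), all overlapping. The difference between 4NQO and normal was -0.32 (-1.23 to 0.58; limma adjusted p = 0.609), an interval that runs from 2.34-fold lower to 1.49-fold higher.

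Isg15, the modifier protein (chr5:172066369-172067656), ranked the 7 highest arrays in the same order as Irf7. Its levels were 5.81, 7.15 and 6.56 on normal arrays, 6.60, 6.29 and 5.92 on 4NQO arrays and 6.15, 6.06 and 7.52 on IL-1Ra arrays. Normal array 1 was the lowest of all 9 and IL-1Ra array 3 the highest. The order was 4NQO (6.27 ± 0.34), normal (6.51 ± 0.67) and IL-1Ra (6.58 ± 0.82; SD, n = 3), again with no neighbours apart. The difference between IL-1Ra and 4NQO was 0.31 (-0.62 to 1.23; limma adjusted p = 0.736).

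Ifit3, the effector with the second ISRE core (chr1:241527326-241532469), was among the least variable of the 8. It measured 4.72, 5.25 and 5.41 on normal arrays, 5.43, 4.94 and 5.52 on 4NQO arrays and 5.23, 4.88 and 5.56 on IL-1Ra arrays. All 3 groups covered nearly the same range. The order was normal (5.13 ± 0.36), IL-1Ra (5.22 ± 0.34) and 4NQO (5.30 ± 0.31; SD, n = 3). The intervals of its 3 differences lay between -0.59 and 0.68, and the lowest adjusted p by limma was 0.648.

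Mx1 (chr11:50269056-50294699) and Mx2 (chr11:50375101-50399373) are neighbouring paralogs 80401 bases apart, and whether a probe set reads both was not tested. Mx1 measured 3.48, 4.20 and 4.11 on normal arrays, 3.66, 3.87 and 3.71 on 4NQO arrays and 3.47, 3.49 and 5.81 on IL-1Ra arrays. Apart from IL-1Ra array 3 the values lay between 3.47 and 4.20, close to the lower quartile of the arrays, which ran from 3.60 to 3.78, so Mx1 was dim on most arrays. The means were 3.75 ± 0.11 in 4NQO, 3.93 ± 0.39 in normal and 4.25 ± 1.34 in IL-1Ra (SD, n = 3), and that of IL-1Ra rests on 1 array. The difference between IL-1Ra and 4NQO was 0.51 (-0.65 to 1.66; limma adjusted p = 0.649), and without IL-1Ra array 3 it was -0.27.

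Mx2 measured 4.08, 4.69 and 4.81 on normal arrays, 4.70, 4.15 and 4.35 on 4NQO arrays and 4.22, 3.99 and 5.21 on IL-1Ra arrays. The 3 groups had nearly the same mean, 4.40 ± 0.28 in 4NQO, 4.47 ± 0.65 in IL-1Ra and 4.53 ± 0.39 in normal (SD, n = 3), and overlapped. Its adjusted p by limma lay between 0.798 and 0.934. The second Mx2 probe set was dimmer still, between 2.74 and 3.24, and was lowest on IL-1Ra array 3.

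**Figure D1:**
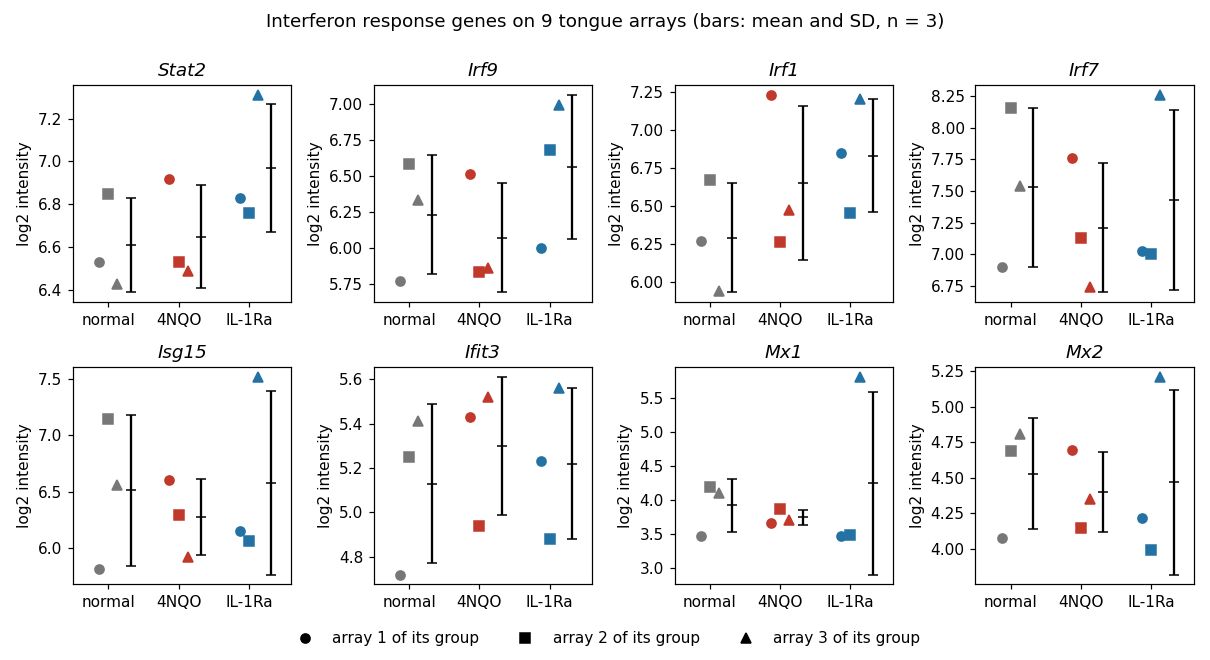
Log2 intensity of the 8 genes (y axis, 1 panel per gene, scales differ) on the normal, 4NQO and IL-1Ra arrays (x axis, 3 groups), with 1 symbol per array and black bars for the mean and SD (n = 3). The groups overlap for each gene, and IL-1Ra array 3 (blue triangle) is the highest of its group in 8 of 8 panels, with Mx1 at 5.81.

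The directions of the group differences were mixed. Of the 8 genes, 3 lay above 0 in 4NQO against normal with a median difference of -0.14, beside 0.01 over all probe sets. In IL-1Ra against 4NQO 7 lay above 0 with a median of 0.27, beside -0.02 over all probe sets. In IL-1Ra against normal 6 lay above 0 with a median of 0.21, beside -0.01. The last 2 comparisons share the IL-1Ra arrays and the first 2 share the 4NQO arrays, so these medians are not independent. Without IL-1Ra array 3 the median in IL-1Ra against 4NQO was -0.18 (2 of 8 above 0) and in IL-1Ra against normal -0.24 (3 of 8 above 0), so the direction of both rested on that array. In 4NQO against normal the median was 0.05 without normal array 2 and between -0.37 and -0.02 without any other array. For IL-1Ra against normal it was -0.01 without normal array 1 and 0.42 without normal array 2. No array left out brought any of the 8 to a call, with a lowest adjusted p of 0.194 by limma.

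**Figure D2:**
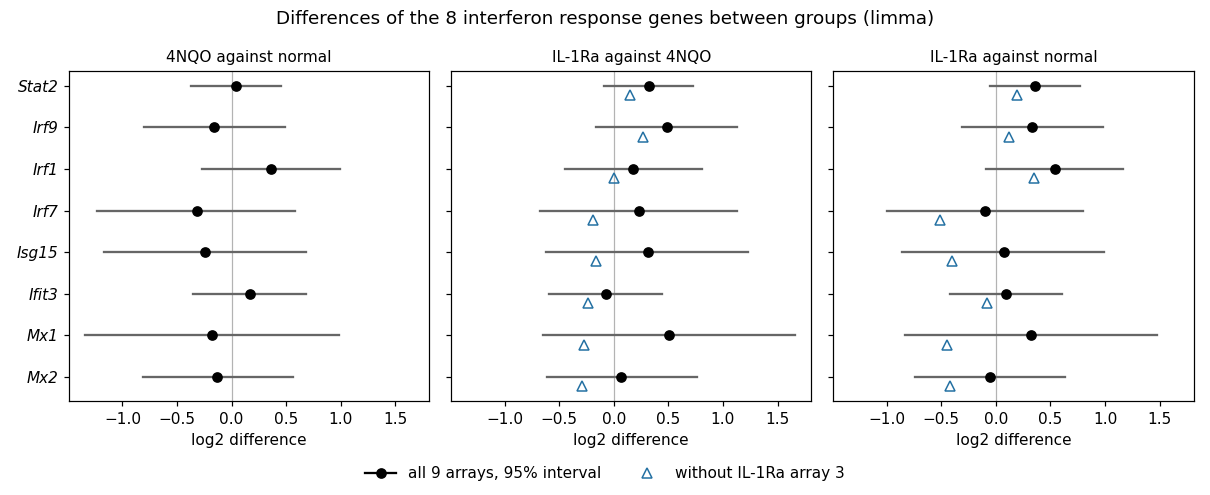
Log2 difference (x axis) of each gene (y axis) in the 3 comparisons, with the limma estimate from 9 arrays as a black point and its 95% interval as a line. Each interval includes 0, and blue triangles, the estimates without IL-1Ra array 3, lie left of the black points in both comparisons that use that array, where the median went from 0.27 to -0.18 and from 0.21 to -0.24.

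Pooled over the groups, the 8 genes varied more than most probe sets. Their pooled SD was 0.81 for Mx1, 0.64 for Isg15, 0.63 for Irf7, 0.47 for Mx2, 0.44 for Irf9, 0.42 for Irf1, 0.34 for Ifit3 and 0.25 for Stat2, against a median of 0.18 over all probe sets. Ranked among all probe sets, these SDs lay between percentiles 78.5 (Stat2) and 99.4 (Mx1). Without IL-1Ra array 3 they lay between percentiles 64.9 (Stat2) and 97.1 (Irf7), and that of Mx1 dropped to 0.26, at percentile 79.2. By group, the percentiles lay between 85.6 and 99.4 among normal arrays, which saw no carcinogen, between 86.5 and 99.9 among IL-1Ra arrays, and between 22.5 (Mx1) and 93.4 among 4NQO arrays, where Mx1 varied less than most probe sets. With 3 arrays a group, this spread limits how small a difference can be resolved.

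The arrays deviated together. IL-1Ra array 3 was the highest of its group for 8 of 8 genes (36.4% of all probe sets) and the highest of all 9 arrays for 7 of 8 (10.5% of all probe sets). Its excess over the mean of the other IL-1Ra arrays was 2.33 for Mx1, whose other IL-1Ra arrays lay below their lower quartiles so that no fold is given, 1.42 for Isg15 (2.67-fold), 1.24 for Irf7 (2.36-fold) and 1.10 for Mx2 (2.15-fold). For Irf9, Irf1, Stat2 and Ifit3 it was smaller, from 0.51 to 0.64. Normal array 2 was the highest of its group for 6 of 8 genes (37.4% of all probe sets) and 4NQO array 1 for 6 of 8 (28.5%). Averaged over the 8 genes, the deviation from the mean of the 9 arrays was -0.44, 0.30 and 0.00 on normal arrays, 0.21, -0.26 and -0.26 on 4NQO arrays and -0.17, -0.23 and 0.84 on IL-1Ra arrays. This order was noticed in the data and carries no test.

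Of the marker lists, only macrophages and fibroblasts had their highest mean deviation of each group on normal array 2, 4NQO array 1 and IL-1Ra array 3. Of 10 measured macrophage markers, 7 were highest of all 9 arrays on IL-1Ra array 3, and their mean deviation was 0.66 there, 0.52 on 4NQO array 1 and 0.37 on normal array 2, the same array of each group as for the interferon response genes. On the rest it was 0.03 and -0.25 in normal, -1.10 and -0.56 in 4NQO and 0.28 and 0.04 in IL-1Ra. Their summed intensity ran from 1387 to 2285 in normal, 786 to 2491 in 4NQO and 1695 to 2740 in IL-1Ra. Of 12 T and NK cell markers 6 were highest on IL-1Ra array 3, with sums of 279 to 290, 240 to 323 and 325 to 394 in the same order. Of 5 genes listed as neutrophil markers 2 were highest there, with sums of 169 to 297, 107 to 146 and 165 to 303. Those sums lean on Ly6g6e, the brightest of the 5 on each array, which is not the neutrophil antigen Ly6G. Of 5 B and plasma cell and 4 dendritic cell markers 0 were highest on IL-1Ra array 3. Fibroblast markers, too, had their highest mean deviation of each group on normal array 2 (0.72), 4NQO array 1 (0.14) and IL-1Ra array 3 (0.32), and 5 of 6 were highest of the IL-1Ra group on array 3, though 0 of 6 were highest of all 9. Their sums ran from 18235 to 20963 in normal, 4455 to 13156 in 4NQO and 12358 to 15750 in IL-1Ra. On IL-1Ra array 3, 4 of 7 suprabasal and 1 of 7 basal keratinocyte markers were highest of all 9. Of 6 endothelial markers 5 were highest of that group there, though 0 of 6 were highest of all 9. On normal array 2 and 4NQO array 1 the mean deviation was -0.40 and -0.55 for suprabasal and -0.87 and 0.11 for basal keratinocytes. For T and NK cells it was -0.03 and -0.04, and for endothelium -0.14 and 0.46, with 0.51 on 4NQO array 2. In whole tissue, fewer cells of a type and less RNA per cell cannot be told apart. RNA quality was read from beta-actin as the 3′ probe set minus the 5′ probe set, which was 0.86, 0.80 and 0.74 on normal arrays, 1.24, 1.07 and 1.29 on 4NQO arrays and 0.98, 1.13 and 1.27 on IL-1Ra arrays. The same difference for GAPDH was 0.28 on IL-1Ra array 3, within the range of the other arrays. For hexokinase it ran from 1.47 to 1.53 on normal arrays and from 1.29 to 1.78 on 4NQO arrays. On IL-1Ra arrays the hexokinase difference was 2.2, 1.95 and 1.80, above every array of the other groups, with array 3 the lowest of its group. The part of these cell types and of RNA quality in the order of the arrays was not tested.

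**Figure D3:**
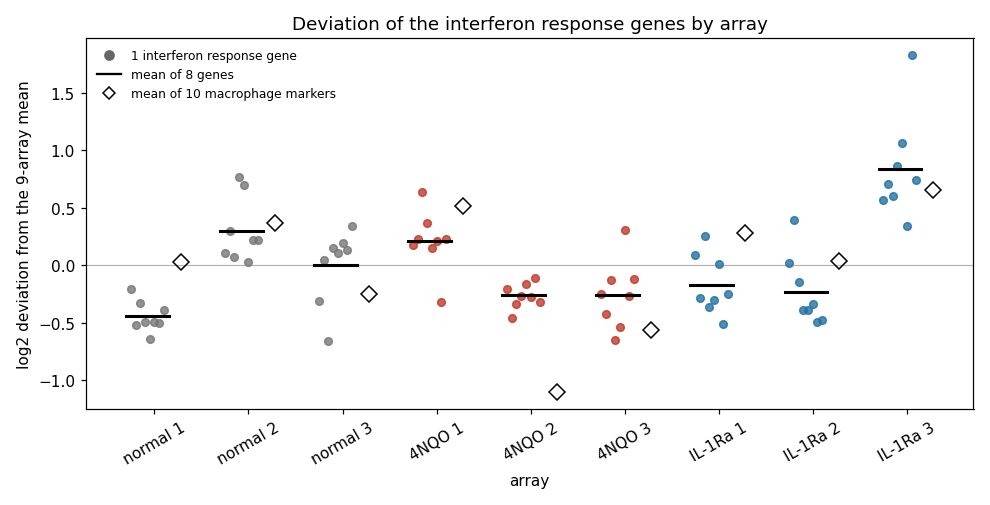
Deviation of each gene from its own mean over 9 arrays (y axis, log2) on each array (x axis, 3 per group), with a line for the mean of the 8 genes and a diamond for the mean of 10 macrophage markers. The mean of the 8 genes is 0.84 on IL-1Ra array 3, 0.30 on normal array 2 and 0.21 on 4NQO array 1, and -0.44 on normal array 1.

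As for the whole set of arrays, pairs correlated at 0.967 to 0.995 over all probe sets, 0 pairs held identical values, and medians ran from 5.23 to 5.27. The tissue carried bright markers of skeletal muscle (summed intensity 46155 to 60688) and of basal (7926 to 27652) and suprabasal keratinocytes (18398 to 44335), as a tongue does.

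Around the 8 genes, 108 of 143 listed genes of the interferon pathway could be measured. The others were not analysed here. In 4NQO against normal 10 of the 108 rose and 1 fell (10.2% called, against 14.9% of all probe sets), with a median of 0.07. In IL-1Ra against 4NQO and in IL-1Ra against normal limma called 0 of 108, with medians of 0.07 and 0.13 and lowest adjusted p of 0.0685 and 0.0605. At an unadjusted limma p under 0.05, 19, 12 and 24 of 108 passed in the 3 comparisons. Over all probe sets 32.9%, 19.0% and 22.7% passed. The 11 calls depended on single arrays, as did the calls over all probe sets. Without normal array 3 limma called 0 of 108, without normal array 2 only Jak2 and Tyk2, and without normal array 1 only Jak2, Samhd1, Stat3 and Tor3a. Without 4NQO array 1 or 4NQO array 3 it called 6, and without IL-1Ra array 2 it called 7. Over all probe sets the calls fell from 4610 to 851, 1518 and 1873 without normal array 3, 2 and 1. They were 3731, 4370 and 3642 without 4NQO array 1, 4NQO array 3 and IL-1Ra array 2.

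The ligand genes were dim, between 2.42 and 4.05 on all arrays. Ifnb1, Ifng and Ifnk, 3 of 10 listed ligand genes, did not pass in any comparison, with differences between -0.19 and 0.21. Of the 6 receptor genes none passed. Ifnar1 and Ifnar2, the 2 chains of the type I receptor, differed between 4NQO and normal by -0.19 (limma adjusted p = 0.413) and 0.23 (limma adjusted p = 0.121). Ifngr1, a chain of the interferon-gamma receptor, was 9.13 ± 0.10 in 4NQO and 9.47 ± 0.26 in IL-1Ra (SD, n = 3), with IL-1Ra array 3 the highest at 9.76, and a difference of 0.34 (limma adjusted p = 0.267).

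Of the receptor kinases and STATs, 3 of 4 rose in 4NQO against normal, where 14.9% of all probe sets were called. The counts of the lists that follow stand beside the same share. Stat3, which transduces many cytokines besides interferons, measured 8.74, 8.53 and 8.50 on normal arrays, 9.51, 8.97 and 9.52 on 4NQO arrays and 9.31, 9.19 and 9.24 on IL-1Ra arrays. All normal arrays were below all others. It rose by 0.75 in 4NQO (limma adjusted p = 0.0157). Jak2, a kinase of the interferon-gamma receptor, rose by 0.67 (limma adjusted p = 0.0188), and Tyk2, a kinase of the type I receptor, by 0.46 (limma adjusted p = 0.022). In IL-1Ra against 4NQO the 3 differed by -0.05 to -0.09 and did not pass. After cyclic loess the rise of Stat3 was 0.57 (limma adjusted p = 0.0566), that of Jak2 0.49 (limma adjusted p = 0.0561) and that of Tyk2 0.27 (limma adjusted p = 0.147), so none was called. After quantile normalization Stat3 was still called, at 0.61 (limma adjusted p = 0.0398), whereas Jak2 at 0.50 (limma adjusted p = 0.0526) and Tyk2 at 0.28 (limma adjusted p = 0.132) were not.

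Of 6 other IRF factors and IRF2-binding proteins, 2 rose, Irf2 by 0.40 (limma adjusted p = 0.0301) and Irf2bp2, a corepressor partner of Irf2, by 0.48 (limma adjusted p = 0.0218). After cyclic loess Irf2 was at 0.18 (limma adjusted p = 0.308) and Irf2bp2 at 0.33 (limma adjusted p = 0.0929), and neither was called after quantile normalization. Irf8, a factor of myeloid and lymphoid cells, measured 6.09 ± 0.48, 6.63 ± 0.99 and 7.05 ± 0.14 in normal, 4NQO and IL-1Ra (SD, n = 3) and was not called, with IL-1Ra minus normal at 0.96 (limma adjusted p = 0.205). Of 10 nucleic acid sensors and adaptors 2 rose. Trim25, a ubiquitin ligase that acts with the RNA sensor RIG-I, rose by 0.54 (limma adjusted p = 0.0285; 0.32 after cyclic loess, limma adjusted p = 0.149). Dhx58, a RIG-I-like helicase, rose by 0.36 (limma adjusted p = 0.0382; 0.48 after cyclic loess, limma adjusted p = 0.0196). Dhx58 was dim, between 3.52 and 3.99 on all arrays, close to their lower quartile. Its call was lost in 8 of 15 alternatives, and that of Trim25 in 8 of 16.

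Of 40 other antiviral effectors 1 rose (Tor3a, by 0.94; limma adjusted p = 0.0345, and 0.0786 after cyclic loess) and 1 fell in 4NQO against normal, with a list median of -0.08. The 1 that fell was Samhd1, an enzyme that hydrolyses deoxynucleotides. It measured 7.26, 8.36 and 7.70 on normal arrays, 6.37, 5.49 and 6.41 on 4NQO arrays and 7.72, 6.63 and 8.26 on IL-1Ra arrays. The 4NQO arrays were all below the others, and the difference from normal was -1.68, a 3.20-fold fall (limma adjusted p = 0.0285). Against 4NQO, IL-1Ra was 1.44 higher, with limma adjusted p = 0.106. The fall was also called after quantile normalization (-1.83) and cyclic loess (-1.89), but not without normal array 2 or 3 or without 4NQO array 2.

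Effectors most often read as signs of interferon did not pass. Ifit1, a relative of Ifit3, differed between 4NQO and normal by -0.56 (limma adjusted p = 0.221) and Ifit2 by -0.08 (limma adjusted p = 0.856). Oas1a, which makes the activator of RNase L, differed by 0.38 (limma adjusted p = 0.54). Rsad2, encoding viperin, spread from 5.17 to 9.0 among the 4NQO arrays, with the highest on 4NQO array 1, and differed by -0.34 (limma adjusted p = 0.65). Usp18, which removes Isg15 from proteins, differed by -0.44 (limma adjusted p = 0.33), and 0 of 5 genes of Isg15 conjugation and removal passed.

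Of 23 interferon-gamma targets and genes of antigen presentation 1 rose in 4NQO, the immunoproteasome subunit Psmb10 (0.70; limma adjusted p = 0.0495), and the list median was 0.13. Psmb10 lost its call in 12 of 16 alternatives and was at 0.51 after cyclic loess (limma adjusted p = 0.147). Cxcl10, a chemokine for activated T cells, was dim, at 3.61 ± 0.13, 4.09 ± 0.62 and 4.04 ± 0.60 in normal, 4NQO and IL-1Ra (SD, n = 3), and was not called, although its highest value, 4.70, again lay on IL-1Ra array 3. Of 11 negative regulators 1 rose in 4NQO, the phosphatase Ptpn2 (0.38; limma adjusted p = 0.0485). It lost its call in 12 of 16 alternatives and was at 0.18 after cyclic loess (limma adjusted p = 0.327).

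**Figure D4:**
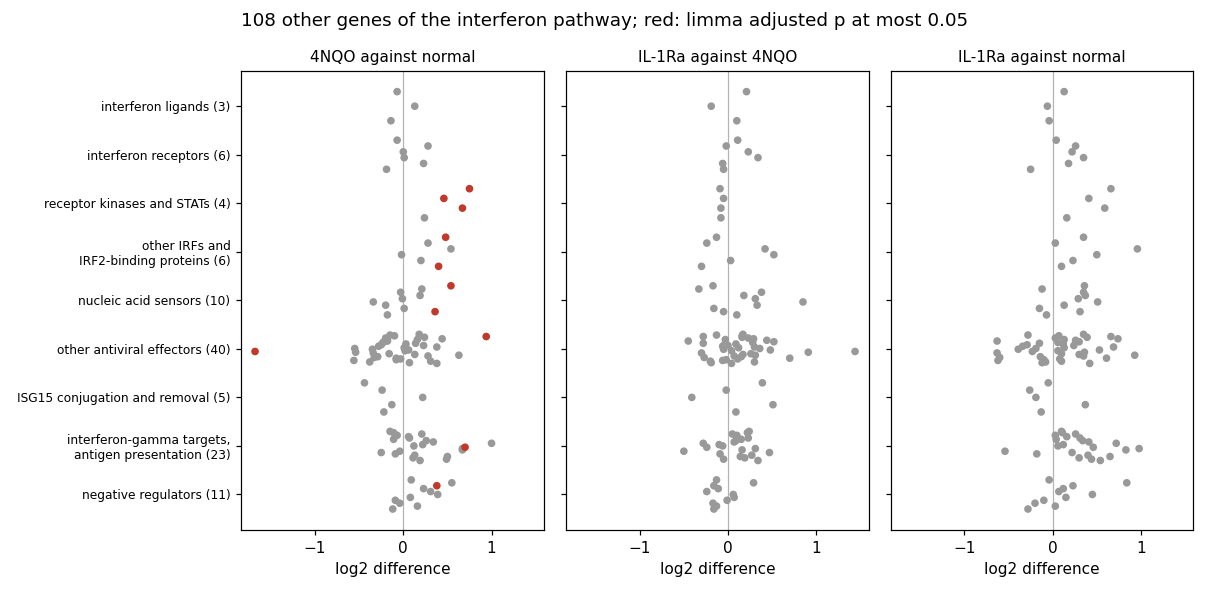
Log2 difference (x axis) of 108 pathway genes in 9 lists (y axis, genes per list in brackets) in the 3 comparisons, 1 point per gene, red where limma called it. Of the 108, 11 are red in 4NQO against normal, among them Samhd1 at -1.68, and 0 in the other comparisons.

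The high values of IL-1Ra array 3 seen in the 8 genes were also present in some of the lists. IL-1Ra array 3 was the highest of 9 for 18 of 23 interferon-gamma targets and genes of antigen presentation, 20 of 40 other antiviral effectors, 4 of 10 sensors and adaptors, 3 of 6 receptors and 2 of 5 genes of Isg15 conjugation and removal. It was the highest for 1 of 4 receptor kinases and STATs, and for 0 of 11 negative regulators, 0 of 6 other IRF factors and IRF2-binding proteins and 0 of 3 ligands. The mean deviation there was 0.60 for the interferon-gamma targets, 0.42 for the antiviral effectors and 0.01 for the negative regulators. The shares are set beside 10.5% of all probe sets and carry no test, since the array was chosen for its values.

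**Figure D5:**
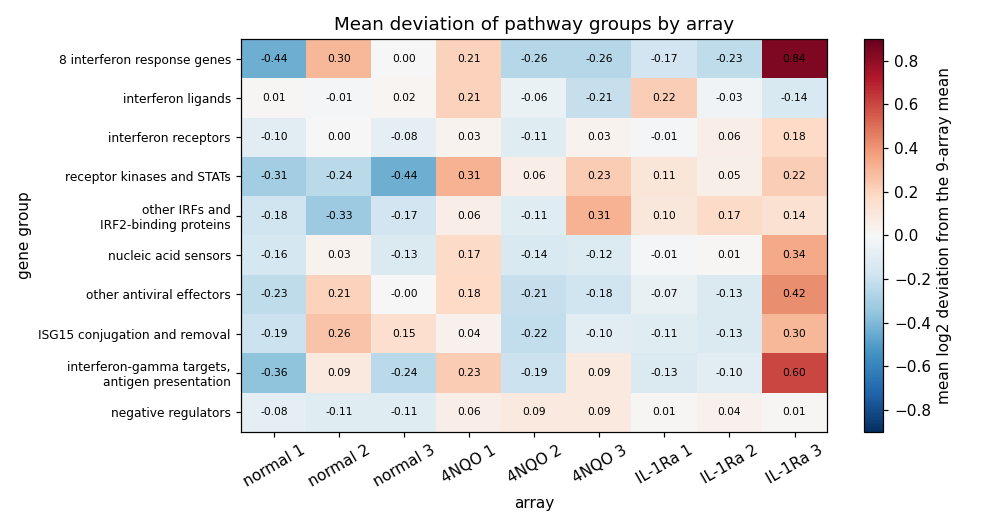
Mean log2 deviation from the 9-array mean (colour and printed value) of the 8 interferon response genes and the 9 pathway lists (y axis) on each array (x axis). IL-1Ra array 3 has 0.84 for the 8 genes, 0.60 for the interferon-gamma targets and 0.42 for the antiviral effectors, and normal array 1 has -0.44, -0.36 and -0.23.

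Among 14101 genes outside the members and lists, those with profiles most like that of Irf1, the member with the widest range of group means, were Smad3, Cyp4f17, Fxyd2, Rin3 and Aebp1. Likeness was the root mean square difference over the 9 arrays after each gene was centred on its own mean, and it was 0.136 for Smad3, a transducer of TGF-beta, and 0.154 for Aebp1, an extracellular matrix protein. Smad3 measured 8.01, 8.32 and 7.64 on normal arrays, 8.81, 8.15 and 8.32 on 4NQO arrays and 8.44, 8.15 and 8.62 on IL-1Ra arrays. Like Irf1 it was highest on 4NQO array 1 and lowest on normal array 3. All 9 points come from the same arrays, and this likeness is a description.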

How the data were processed

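Total RNA from tongue was hybridised to Affymetrix rat genome expression arrays. The authors deposited linear intensity values, 1 per probe set and array, made with Affymetrix Expression Console and RMA per the labels (versions not given in the sources used here). RMA is meant to equalise array distributions, which can hide a change in the same direction of most genes. The deposited values were not fully equal. The upper quartile (log2) was 7.08, 7.05 and 7.04 on normal arrays. On 4NQO arrays it was 7.25, 7.21 and 7.28, and on IL-1Ra arrays 7.16, 7.21 and 7.26. How the calls moved when the values were scaled again is given below. From the deposited intensity, log2 was taken. Of 31099 probe sets, 57 controls were left out and 31042 tested without a filter; 20826 had a single symbol, 436 several and 9780 none. All 8 members matched a RefSeq gene (GRCr8), which gave the coordinates.

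Group means of the 9 arrays were fitted with limma 3.58.1 in R 4.3.3 (eBayes, 6 residual and 4.01 prior degrees of freedom, two-sided), with Benjamini-Hochberg adjustment over all probe sets of each of 3 comparisons. The procedure was tested on simulated data. Tables and figures were made with Python 3.11.15, pandas 2.3.3 and matplotlib 3.10.9. The labels do not say that each array is a separate animal, so p-values measure the spread between these samples. Some items are not reported here. The members and gene lists were chosen with earlier results of these data known.

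Named were all members, 10 further pathway genes whatever their values, the 6 lowest adjusted p per comparison among called pathway genes, and the 5 nearest profiles. Dhx58, Irf2, Tor3a, Psmb10, Ptpn2, Ifnb1, Ifng and Ifnk were named after their values were seen. Alternatives were other scalings, a filter leaving out the dimmest 40% of probe sets, other variance models, array weights, only the 6 arrays compared, the methods' Student test, other probe sets and leaving out each array.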

Additional observations from a re-analysis of the deposited data

How the results depend on the processing

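No member was called in any comparison or by the F test under the alternatives run, which tested all 8 except that leaving out dim probe sets removed Mx1 and Mx2 and tested 6. The methods' Student test at an unadjusted p of 0.05 also gave 0 of 8 in each comparison, where it passed 8236, 3737 and 7614 of all probe sets in the order of the report. No paired analysis was possible because the labels give the groups no shared replicate numbers. The pathway genes called in 4NQO against normal, 11 in the report, were 3 after quantile normalization (Dhx58, Samhd1 and Stat3), 2 after cyclic loess (Dhx58 and Samhd1), 0 by the methods' Student test and 0 to 10 with 1 array left out (0 without normal array 3). In IL-1Ra against 4NQO the count was 0 to 3 with 1 array left out. In IL-1Ra against normal it was 1 without dim probe sets, 12 with array weights, 7 with only the 6 arrays compared and 0 to 4 with 1 array left out. Over all probe sets, the 4610 calls of 4NQO against normal became 2821 after quantile normalization, 2480 after cyclic loess, 1 by the Student test and 851 to 4417 with 1 array left out, and the share of higher calls went from 63.4% to 51.9% and 47.7% under the 2 scalings. In IL-1Ra against 4NQO that share went from 68.6% to 76.1% and 79.9%, and in IL-1Ra against normal from 71.1% to 46.3% and 35.1%. The 722 calls of IL-1Ra against 4NQO became 195 with only the 6 arrays compared, 0 by the Student test and 184 to 2353 with 1 array left out. The 581 calls of IL-1Ra against normal became 203 after quantile normalization, 97 after cyclic loess, 3556 with array weights, 2714 with only the 6 arrays compared, 109 by the Student test and 0 to 2084 with 1 array left out. The causes were not tested.

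Differences that were not called changed sign as follows. In 4NQO against normal, Irf9 was 0.03 with array weights and 0.35 on its other probe set, and Stat2 was -0.13 after quantile normalization, -0.15 after cyclic loess and -0.04 on its other probe set. In IL-1Ra against 4NQO with array weights, Irf1 was -0.10, Irf7 -0.10 and Mx2 -0.15. In IL-1Ra against normal, Mx2 was 0.01 after quantile normalization and 0.05 after cyclic loess, and Isg15 was -0.06, -0.04 and, with array weights, -0.01. With 1 array left out, 4NQO minus normal ran from -0.38 to 0.02 for Irf9, -0.09 to 0.16 for Stat2, -0.35 to 0.01 for Mx2, -0.04 to 0.34 for Ifit3 and -0.59 to 0.08 for Isg15. IL-1Ra minus 4NQO ran from -0.02 to 0.47 for Irf1, -0.19 to 0.50 for Irf7, -0.27 to 0.90 for Mx1, -0.29 to 0.31 for Mx2, -0.25 to 0.10 for Ifit3 and -0.16 to 0.57 for Isg15. IL-1Ra minus normal ran from -0.51 to 0.22 for Irf7, -0.45 to 0.72 for Mx1, -0.42 to 0.19 for Mx2, -0.11 to 0.26 for Ifit3 and -0.40 to 0.39 for Isg15. With 3 arrays a group and Mx1 close to the lower quartile of most arrays, small changes cannot be resolved, and no detection call was used.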
